A study of Homo sapiens with 11 samples.

Results

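The 9 genes of leukocyte adhesion described here were followed in THP-1 cells: the intercellular adhesion molecules ICAM1, ICAM2, ICAM3 and ICAM4, the vascular adhesion molecule VCAM1, the platelet and endothelial adhesion molecule PECAM1, E-selectin (SELE), the selectin ligand SELPLG and the CD2 ligand CD58. They were chosen by name, and all 9 were present among the 594 endogenous probes of the panel. The samples were of THP-1, a long-established human monocytic leukaemia line, and RNA was counted on the NanoString nCounter, which hybridizes a barcoded probe to each transcript without amplification, from 50 ng of total RNA. Mac_Dex (2 samples) held cells turned into macrophages by 3 h of the phorbol ester PMA and 24 h of recovery, then kept for 24 h in hormone-stripped medium and treated for 6 h with 100 nM dexamethasone (Dex), a synthetic glucocorticoid. Mac_Vehicle (3 samples) held the same macrophages with vehicle. Mono_Dex (3 samples) and Mono_Vehicle (3 samples) held the undifferentiated cells after the same 24 h in stripped medium, with Dex or vehicle for 6 h. The design text names 12 samples, of which the authors left out 1 Mac_Dex sample that grouped with the vehicle macrophages and showed no rise of FKBP5, so results in Mac_Dex are not free of that choice. All groups come from 1 cell line, and whether the replicates were separate cultures is not in the labels, so each p-value reflects only sample-to-sample spread, which may be technical.

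Leukocytes leave the blood by rolling on selectins, which bind sugars carried by ligands such as SELPLG, and then holding fast through integrins that bind ICAMs and VCAM1. PECAM1 binds itself on the neighbouring cell and acts in the step across the vessel wall, while ICAM3 and CD58 serve contacts between leukocytes. In endothelial cells ICAM1, VCAM1 and SELE are induced together by the cytokines TNF and interleukin 1 through NF-kB, and glucocorticoids are known to restrain that route. In macrophages ICAM1 is likewise an inflammation-induced surface protein.

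These 3 cytokine-inducible genes are shown by the 250 bases before their annotated start, from RefSeq on GRCh38.p14, because only ICAM1 among them was measured above the floor. The sequences run 5′ to 3′ on the gene's strand, and capitals mark letters matching GGNNNTTCC on either strand, a pattern shared by many NF-kB sites. ICAM1 is at chr19:10270870-10271119 on the forward strand, VCAM1 at chr1:100719492-100719741 on the forward strand and SELE at chr1:169734080-169734329 on the reverse strand.
ICAM1: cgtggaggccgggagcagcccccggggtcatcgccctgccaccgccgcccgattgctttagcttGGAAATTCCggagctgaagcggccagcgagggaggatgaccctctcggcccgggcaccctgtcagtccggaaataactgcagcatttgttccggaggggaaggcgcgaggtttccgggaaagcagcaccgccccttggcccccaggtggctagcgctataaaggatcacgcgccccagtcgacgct
VCAM1: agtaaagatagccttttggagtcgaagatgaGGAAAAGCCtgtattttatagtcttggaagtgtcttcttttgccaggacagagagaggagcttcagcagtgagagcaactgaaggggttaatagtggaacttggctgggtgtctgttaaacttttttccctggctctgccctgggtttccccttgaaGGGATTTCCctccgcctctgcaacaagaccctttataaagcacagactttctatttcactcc
SELE: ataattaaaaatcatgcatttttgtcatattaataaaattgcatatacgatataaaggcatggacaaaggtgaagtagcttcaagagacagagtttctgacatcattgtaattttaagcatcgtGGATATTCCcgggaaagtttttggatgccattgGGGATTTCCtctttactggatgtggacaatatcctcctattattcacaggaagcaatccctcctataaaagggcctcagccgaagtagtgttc

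The ICAM1 window held 1 stretch of this pattern, GGAAATTCC, from 186 to 178 bases before the start, which reads the same on both strands. VCAM1 held GGGATTTCC from 62 to 54 bases before the start and GGAAAAGCC, a match on the opposite strand, from 219 to 211 bases. SELE held GGATATTCC from 126 to 118 bases and GGGATTTCC from 93 to 85 bases before the start. The window of CD58, not printed here, held GGAAGGGCC, a match on the opposite strand, from 81 to 73 bases before the start. Those of ICAM3 and ICAM4 held no match to this pattern. Of 35116 RefSeq windows of this length, 17.1% held the pattern. ICAM1 also held TTCCGGGAA from 75 to 67 bases before the start, a match to TTCNNNGAA, the pattern of sites bound by STAT dimers, which does not overlap the other stretch and occurs in 6.57% of windows. AGAACA, an arm of the palindrome bound by the glucocorticoid receptor, was searched on both strands; it was in none of the windows of the 6 genes with an entry (ICAM1, ICAM3, ICAM4, VCAM1, SELE and CD58) and in 12.4% of all windows. These matches describe letters, not binding. In position, ICAM1, ICAM4 and ICAM3 lie in 1 cluster on chromosome 19, with ICAM4 starting at 10286955, just past the end of ICAM1 at 10286615. ICAM2 and PECAM1 lie near each other on chromosome 17.

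The deposited values are normalized signal in arbitrary units, and 20 units were taken as the floor. In these units the sum over endogenous probes ran from 742895 to 889658 in macrophage samples and from 372345 to 420466 in monocyte samples. FKBP5, whose protein acts on the glucocorticoid receptor and whose transcript served as the check of treatment, was at 37306 to 38036 units in Mac_Dex against 407 to 623 in Mac_Vehicle, and at 24832 to 24990 in Mono_Dex against 1205 to 1259 in Mono_Vehicle. Of 9 measured monocyte and macrophage markers, 8 reached the floor in each macrophage group and 6 in each monocyte group. The summed signal of the 9 was 12386 to 13056 units in Mac_Dex and 15392 to 17197 in Mac_Vehicle. It was 1271 to 1355 in Mono_Dex and 1445 to 1566 in Mono_Vehicle. None of 8 T-cell markers reached the floor in any group. Of 5 measured endothelial markers, PECAM1 reached the floor in every group, and VCAM1, SELE, CDH5 and CD34 reached it in none. The summed signal of CDH5 and CD34, which are not among the members, was at most 3.66 units in any sample. Of the 6 NK-cell markers only GNLY reached the floor in any group, and the summed signal of the list was at 798 to 829 units in Mac_Dex against 111 to 140 in Mac_Vehicle, and at 529 to 536 in Mono_Dex against 17.1 to 25.4 in Mono_Vehicle. The part of this signal in the results on Dex was not tested.

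VCAM1, SELE and SELPLG stayed under 20 units in all 11 samples. VCAM1, the ligand of integrins that carry the ITGA4 chain, was at 1.47 and 1.52 units in Mac_Dex, 1.21, 1.42 and 1.22 in Mac_Vehicle, and 1.00 in all 6 monocyte samples. These are the lowest values each sample holds. SELE, the cytokine-induced selectin of endothelium, was at 1.47 and 5.75 units in Mac_Dex, 6.80, 3.66 and 7.46 in Mac_Vehicle, and 1.00 in each monocyte sample. SELPLG, the main P-selectin ligand of leukocytes, was at 1.47 and 1.52 units in Mac_Dex, 4.37, 3.66 and 1.22 in Mac_Vehicle, 4.10, 1.31 and 10.95 in Mono_Dex, and 9.91, 8.73 and 9.20 in Mono_Vehicle. ICAM4, a red-cell glycoprotein that binds integrins, crossed the floor in 1 sample only: it was at 4.19 and 22.5 units in Mac_Dex, 16.5, 19.3 and 14.8 in Mac_Vehicle, 4.83, 1.00 and 2.41 in Mono_Dex, and 3.24, 1.00 and 1.00 in Mono_Vehicle. Its Mac_Vehicle samples lay above all 6 monocyte samples, but under the floor, and the Mac_Dex samples lay on both sides of them. The highest negative control lay between 8.97 and 15.6 units over the samples. VCAM1 and SELE stayed under the lowest of these in every sample, and SELPLG passed its own sample's only in Mono_Vehicle replicate 6 (9.20 against 8.97 units), while each Mac_Vehicle sample had ICAM4 above its own highest negative control (16.5 against 15.6 units, 19.3 against 12.6 and 14.8 against 14.1). Whether background was subtracted, from the endogenous probes or from the controls, is not stated. A value under or over the controls is therefore not shown to be under or over background. None of the 4 genes had a group mean at the floor, and none was tested.

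**Figure D1:**
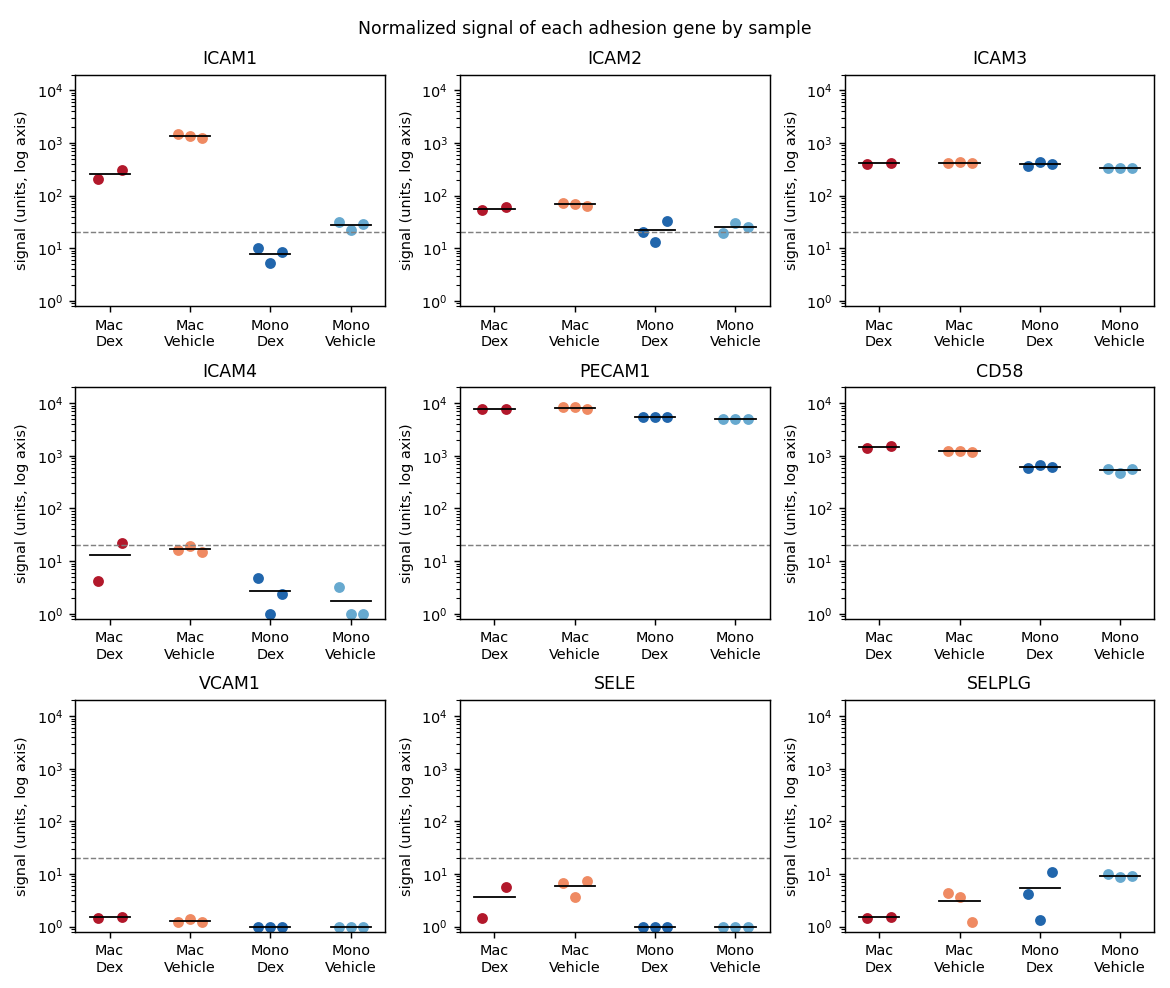
Normalized signal of the 9 genes in every sample (vertical log axis, arbitrary units; horizontal axis, the 4 groups), with a point per sample, a bar at the group mean and a dashed line at the floor of 20 units. ICAM1, PECAM1 and CD58 each separate all 4 groups, ICAM2 separates the cell states, and VCAM1, SELE and SELPLG stay under the line in every sample.

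ICAM1, which binds the integrins ITGAL-ITGB2 and ITGAM-ITGB2, was the member that changed most in each comparison. It was at 209 and 302 units in Mac_Dex, 1478, 1331 and 1264 in Mac_Vehicle, 9.99, 5.17 and 8.39 in Mono_Dex, and 30.9, 22.1 and 28.3 in Mono_Vehicle. No 2 groups overlapped, and the order was Mac_Vehicle, Mac_Dex, Mono_Vehicle, Mono_Dex from high to low. In macrophages Dex lowered it to 255 ± 66.0 units (SD, n = 2), against 1358 ± 109 (SD, n = 3) with vehicle, a log2 change of -2.43 (SE 0.25; limma adjusted p = 2.01e-06). In monocytes Dex took it under the floor, to 7.85 ± 2.45 units, against 27.1 ± 4.51 with vehicle (SD, n = 3 each), at least 1.35-fold lower (log2 change -1.69, SE 0.22; limma adjusted p = 3.15e-05). The Mono_Dex values rest on net counts (signal divided by the grid step of its sample) of only 5.36 to 13.6, so the size of the monocyte fall is poorly measured. Each also lay under its own sample's highest negative control (9.99 against 15.6 units, 5.17 against 13.4 and 8.39 against 12.8). Both falls remained called under each alternative tried. The fall in bulk RNA cannot separate fewer expressing cells from less RNA per cell.

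ICAM1 also differed between the cell states. With vehicle it was 50.1-fold higher in Mac_Vehicle than in Mono_Vehicle (log2 change 5.61, SE 0.22; limma adjusted p = 9.63e-12), and with Dex it was at least 12.8-fold higher in Mac_Dex than in Mono_Dex (4.87, SE 0.25; adjusted p = 1.99e-10). Even in Mac_Dex the lower sample, at 209 units, lay above the highest Mono_Vehicle sample, at 30.9. The sign held under each of the other scalings. The difference between the macrophage and the monocyte response to Dex was -0.73 on the log2 scale (SE 0.34; limma adjusted p = 0.135), with a 95% interval from -1.46 to -0.0085. That test turned on the pseudocount, with the monocyte samples near or under the floor: it gave -1.08 with a pseudocount of 5 (adjusted p = 0.00814) and -1.58 with 20 (adjusted p = 1.68e-05), and -0.97 without Mono_Dex replicate 3 (adjusted p = 0.0256).

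**Figure D2:**
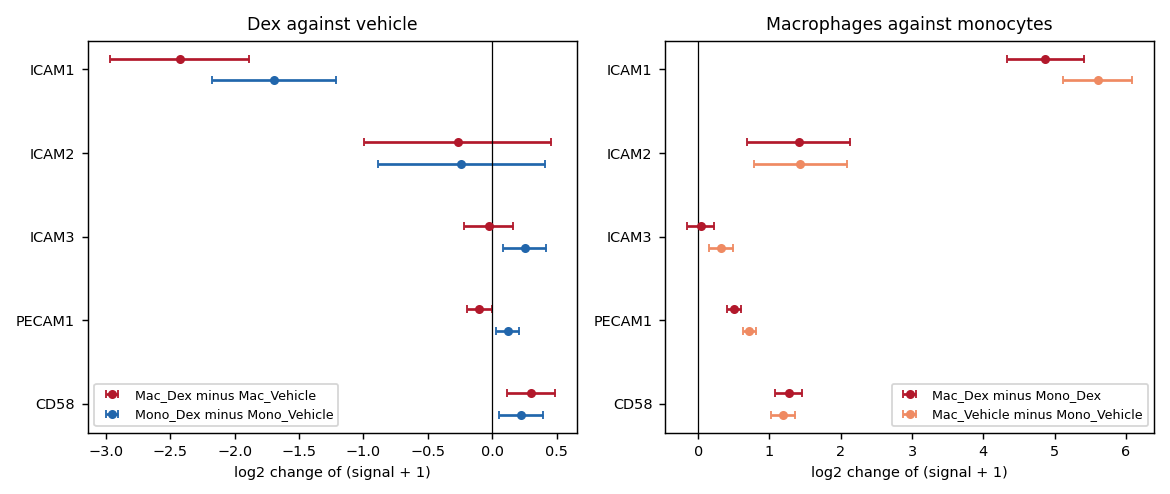
Log2 change of the 5 tested genes with 95% confidence intervals from limma (horizontal axis, log2 of signal + 1), for Dex against vehicle in macrophages and monocytes (left) and for macrophages against monocytes with Dex and with vehicle (right). ICAM1 lies at -2.43 and -1.69 on the left, while the other genes lie between -0.27 and 0.30.

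The other tested members moved little with Dex. Of the 5 members with a group mean of at least 20 units, 1 rose and 1 fell in macrophages, where 47.5% of all 379 tested genes were called (22.4% higher and 25.1% lower). In monocytes 3 rose and 1 fell, where 39.1% of tested genes were called (16.9% higher and 22.2% lower). With 5 members, these counts are not set apart from the panel. The median log2 change of the 5 was -0.099 in macrophages, against -0.034 over all tested genes, and 0.12 in monocytes, against -0.028. Groups did not overlap for 4 of the 5 in macrophages, as for 58.6% of tested genes, and for 4 of the 5 in monocytes, as for 54.6%.

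CD58, the adhesion ligand of CD2 on T and NK cells, was the only member called higher with Dex in both states. It was at 1419 and 1566 units in Mac_Dex, against 1254, 1218 and 1161 in Mac_Vehicle, and at 578, 667 and 612 units in Mono_Dex, against 565, 472 and 556 in Mono_Vehicle. The groups did not overlap in either state. The log2 change was 0.30 (SE 0.09; limma adjusted p = 0.0104) in macrophages and 0.22 (SE 0.08; adjusted p = 0.0335) in monocytes, and the difference between them was 0.077, with a 95% interval from -0.17 to 0.33. The macrophage call ended without Mac_Dex replicate 5 (0.23, adjusted p = 0.102), and the monocyte call ended without Mono_Vehicle replicate 3 (0.14, adjusted p = 0.181), Mono_Dex replicate 3 (0.17, adjusted p = 0.157), and likewise Mono_Dex replicate 6 (0.23, adjusted p = 0.0717). The monocyte call also ended with no filter on low values (adjusted p = 0.0803), without a trend in eBayes (0.0810) and with only the monocyte groups in the fit (0.0888).

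ICAM3, an ICAM of resting leukocytes that binds ITGAL-ITGB2 and the lectin CD209, rose with Dex in monocytes and was not called in macrophages. It was at 360, 442 and 404 units in Mono_Dex, against 336, 340 and 333 in Mono_Vehicle, with no overlap (log2 change 0.25, SE 0.08; limma adjusted p = 0.0200). In macrophages it was at 403 and 419 units with Dex, against 412, 430 and 413 with vehicle, which overlap (-0.027, 95% interval from -0.22 to 0.16). The difference of the responses was -0.28 (SE 0.12; adjusted p = 0.105), and it passed without Mono_Dex replicate 2 (-0.35, adjusted p = 0.0406). The monocyte call ended without Mono_Vehicle replicate 1 (adjusted p = 0.0525), Mono_Vehicle replicate 6 (0.0648), Mono_Dex replicate 3 (0.118), and also Mono_Dex replicate 6 (0.0580).

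PECAM1, the homophilic molecule of endothelium, platelets and myeloid cells, was at 7699 and 7646 units in Mac_Dex, against 8565, 8300 and 7810 in Mac_Vehicle. In monocytes it was at 5533, 5363 and 5383 units with Dex, against 5033, 4926 and 5031 with vehicle. The groups stood apart in opposite directions: the log2 change was -0.099 (SE 0.046; limma adjusted p = 0.0930) in macrophages and 0.12 (SE 0.04; adjusted p = 0.0332) in monocytes. The difference, -0.22 (SE 0.06), was called at adjusted p = 0.0198, where 25.9% of tested genes were called. The monocyte call ended when any 1 of the 6 monocyte samples was left out (adjusted p from 0.0644 to 0.127) or without a trend in eBayes (0.0910), and turned to -0.15 with quantile normalization. The macrophage change was called lower with quantile normalization (-0.23, adjusted p = 0.00193) and housekeeping-centring (-0.11, adjusted p = 0.0103), and stood at 0.12 after median-centring. The call of the difference ended after median-centring (-0.14, adjusted p = 0.371), with quantile normalization (-0.082, adjusted p = 0.391), without a trend in eBayes (adjusted p = 0.0647), and without Mono_Vehicle replicate 3 (adjusted p = 0.0520), Mono_Dex replicate 2 (adjusted p = 0.0537) or Mac_Dex replicate 5 (adjusted p = 0.0587).

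ICAM2, a constitutive ICAM of endothelium and leukocytes that binds ITGAL-ITGB2, was not called for Dex in either state. It was at 52.7 and 60.4 units in Mac_Dex, against 73.55, 69.0 and 62.3 in Mac_Vehicle, and at 20.3, 12.9 and 33.2 in Mono_Dex, against 19.4, 30.45 and 25.0 in Mono_Vehicle. The macrophage groups stood apart and the monocyte groups overlapped around the floor. The log2 change was -0.27 (95% interval from -0.99 to 0.46) in macrophages and -0.24 (from -0.89 to 0.41) in monocytes.

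Between the cell states, all 5 tested members were higher in Mac_Vehicle than in Mono_Vehicle as deposited, where 84.7% of tested genes were called and 65.2% were called higher. The groups did not overlap for any of the 5, as for 85.0% of tested genes. CD58 was at 1211 ± 47.2 units in Mac_Vehicle and 531 ± 51.3 in Mono_Vehicle (SD, n = 3 each; log2 change 1.19, SE 0.08), PECAM1 at 8225 ± 383 and 4997 ± 61.4 (0.72, SE 0.04), ICAM2 at 68.3 ± 5.65 and 25.0 ± 5.51 (1.44, SE 0.30), and ICAM3 at 418 ± 9.87 and 336 ± 3.99 (0.31, SE 0.08). With Dex, 4 were higher in Mac_Dex than in Mono_Dex, where 79.7% of tested genes were called, 61.7% were called higher and 85.8% had groups that did not overlap, and ICAM3 was not called, at 411 ± 11.4 units (SD, n = 2) against 402 ± 40.8 (SD, n = 3). Over all tested genes the median log2 difference between macrophages and monocytes was 0.75 with Dex and 0.72 with vehicle, so the members are best read against that shift.

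The direction for PECAM1 and ICAM3 depended on the scaling. After centring each sample on its median, the panel's median difference with vehicle became -0.20, and calls over all tested genes were 45.6% higher, against 76.9% as deposited. CD58 then stood at 0.28, ICAM2 at 0.52 (no longer called, adjusted p = 0.0805) and ICAM1 at 4.69, while PECAM1 stood at -0.20 (adjusted p = 0.0188) and ICAM3 at -0.60 (adjusted p = 2.22e-05). With Dex the same centring gave a median of -0.087 and 46.3% higher instead of 77.5%. Quantile normalization gave 43.4% higher with Dex and 45.0% with vehicle, and centring on the housekeeping probes 67.3% with Dex. Only ICAM1 and CD58 were called higher in macrophages, in both contrasts, under all 4 scalings. For Dex, median-centring moved the panel's median change to 0.19 in macrophages (-0.034 as deposited) and to 0.12 in monocytes (-0.028 as deposited), and made 67.3% of macrophage calls and 61.5% of monocyte calls higher (47.2% and 43.2% as deposited).

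**Figure D3:**
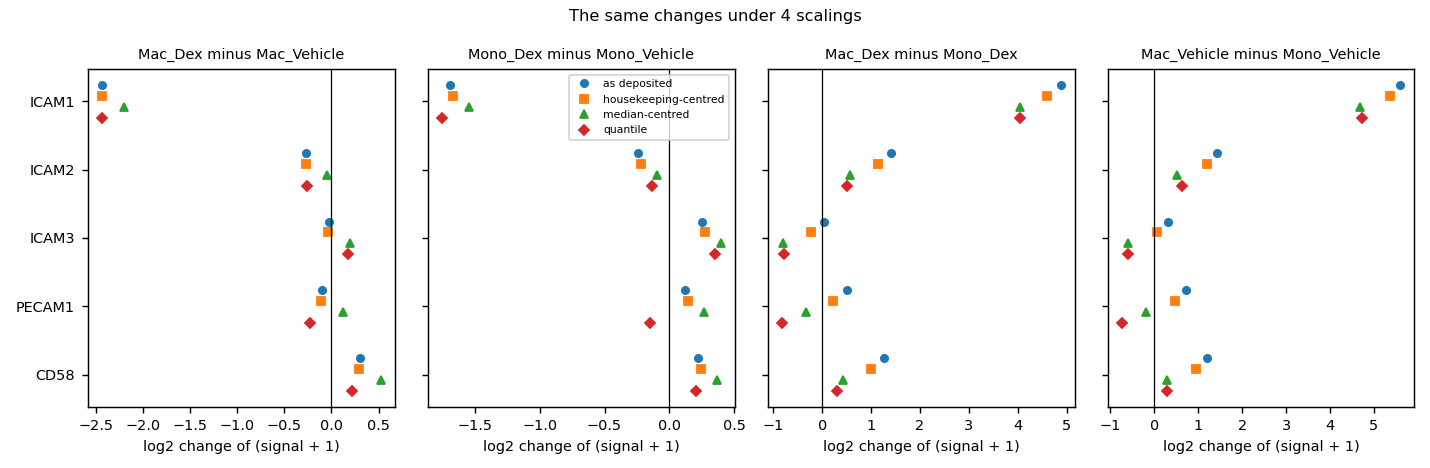
Log2 change of the 5 tested genes (horizontal axis, log2 of signal + 1) in each comparison, with the values as deposited and after housekeeping-centring, median-centring and quantile normalization. ICAM1, ICAM2 and CD58 each keep their side of 0 in all panels. PECAM1 crosses 0 between scalings in every panel, and ICAM3 does so in all but Mono_Dex minus Mono_Vehicle.

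The receptors that bind these molecules were measured in the same samples. Of 11 measured counter-receptors 8 were tested. All 8 were higher in Mac_Vehicle than in Mono_Vehicle, where 65.2% of tested genes were called higher. After median-centring or quantile normalization 7 were higher and 1 lower. Their median log2 difference was 2.43, against 0.72 over all tested genes. ITGB2, the integrin chain shared by the ICAM receptors, was 6.17-fold higher, its partners ITGAM 11.2-fold and ITGAX 9.69-fold higher, and ITGB1, the partner of ITGA4, 3.41-fold higher. With Dex against vehicle (limma), 2 of the 8 fell and none rose in macrophages, where 25.1% of tested genes were called lower and 22.4% higher. The macrophage count of falls is thus near the panel share. In monocytes 5 fell and none rose, where 22.2% of tested genes were called lower and 16.9% higher. None rose at an unadjusted p under 0.05 either, 0 in each state. Under the other scalings 4 to 6 of the 8 fell in monocytes and 2 to 6 in macrophages, where 1 rose after median-centring. ITGAL, the ICAM1-binding chain of lymphocytes and monocytes, fell in both states, to 758 units in Mac_Dex against 1275 in Mac_Vehicle (log2 change -0.75) and to 158 in Mono_Dex against 269 in Mono_Vehicle (-0.77). ITGA4, the chain that binds VCAM1, fell to 489 against 747 in macrophages (-0.61) and to 389 against 567 in monocytes (-0.54). CD44, a hyaluronan receptor that can carry selectin ligands, fell in monocytes (-0.42), and so did CD209, at least 1.56-fold. In macrophages CD209 was at -0.77 (adjusted p = 0.0941), and it was called lower with a pseudocount of 5 (adjusted p = 0.0295) or 20 (0.00172), with only the macrophage groups in the fit (0.00143) and without Mono_Dex replicate 3 (0.00531). ITGB2 was at -0.14 there (adjusted p = 0.0563), and was called lower with quantile normalization (-0.41, adjusted p = 3.71e-06), housekeeping-centring (0.00636), robust eBayes (0.0461) and without Mac_Vehicle replicate 5 (0.00634), but stood at 0.082 after median-centring.

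The NF-kB route that induces endothelial-type adhesion molecules had all 19 of its measured genes tested. With Dex, 5 rose and 7 fell in macrophages, where 22.4% of tested genes were called higher and 25.1% lower. In monocytes 2 rose and 4 fell, where 16.9% of tested genes were called higher and 22.2% lower. The monocyte counts are near or under these shares. After median-centring the counts were 11 and 7 in macrophages and 3 and 4 in monocytes. The cytokine IL1B fell in both states (log2 change -3.63 in macrophages and -2.87 in monocytes, where Mono_Dex was under the floor), as ICAM1 did. NFKBIA, which holds NF-kB in the cytoplasm, rose by 0.69 in macrophages and 1.46 in monocytes, and the interleukin 1 receptor IL1R1 rose by 2.33 in macrophages and at least 2.61-fold in monocytes, where Mono_Vehicle was under the floor (log2 change from 1.13 to 2.11 over the settings tried). RELB, an NF-kB subunit, fell in monocytes (-1.18), and the TNF receptor TNFRSF1B fell in macrophages (-0.65).

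Of 14 other measured adhesion molecules 7 were tested. With Dex, 2 rose and 3 fell in macrophages, and 3 rose and 2 fell in monocytes. Of all tested genes, 22.4% were called higher and 25.1% lower in macrophages, and 16.9% and 22.2% in monocytes. With 7 genes, the counts are not set apart from the panel. The tetraspanin CD81 rose by 0.28 in macrophages and 0.51 in monocytes, a direction that turned with quantile normalization (-0.20 in macrophages and -0.11 in monocytes). CD244, the receptor of CD48, was at -0.88 in macrophages and -0.48 in monocytes, called lower in both. CD99, which acts with PECAM1 in transmigration, rose in macrophages (0.52), where NCAM1 fell (-0.30), a call that ended after median-centring (-0.080, adjusted p = 0.398). The tetraspanin CD9 rose in monocytes (0.43) and CD82 fell there (-0.28, a call that ended without Mono_Vehicle replicate 1 or 6 or Mono_Dex replicate 2 or 3, after median-centring at -0.14 and with quantile normalization at -0.084). ICAM5, the neighbour of ICAM4 on chromosome 19 and a neuronal ICAM, stayed under the floor as a group mean, with 3.61 ± 3.03 units in Mac_Dex (SD, n = 2) and 18.5 ± 2.10 in Mac_Vehicle (SD, n = 3).

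**Figure D4:**
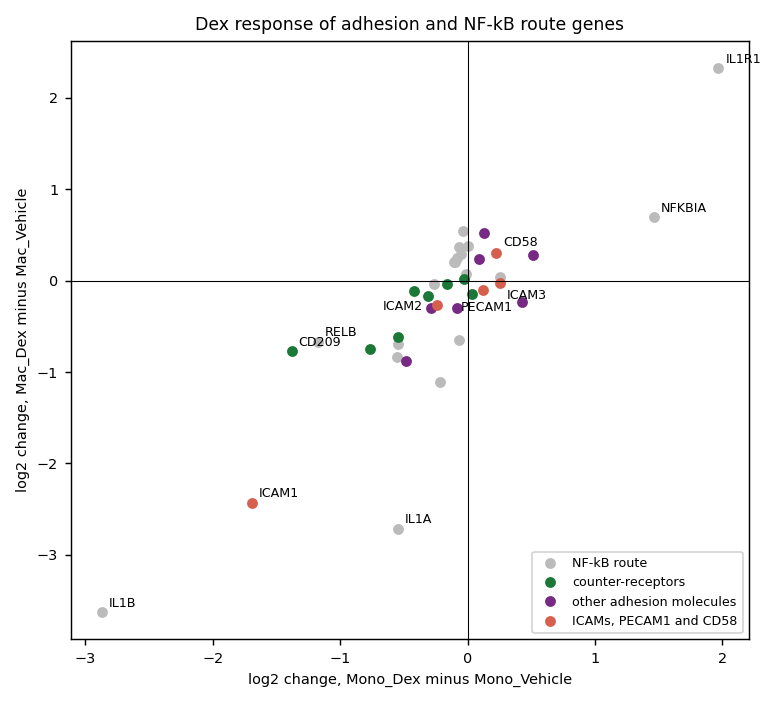
Log2 change with Dex in macrophages (vertical axis) against that in monocytes (horizontal axis) for the tested members, their counter-receptors, other adhesion molecules and genes of the NF-kB route, with a point per gene. ICAM1 lies at -2.43 and -1.69, in the lower left with IL1B, and the other members lie close to 0 on both axes.

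Over the 11 samples, the members' profiles were compared with those of all other tested genes on the log2 scale, as a description. The samples fall in 4 groups, so differences between groups, such as cell state, enter each correlation. How much of each r they set was not tested. The genes most like ICAM1 were TLR1 (Pearson r = 0.995) and ATG7 (0.993). Those most like ICAM2 were ABCB1 (0.950) and CD209 (0.946), and for ICAM3 they were EOMES (0.897) and CMKLR1 (0.840). PECAM1 was most like CD46 (0.995) and CDKN1A (0.995), and CD58 most like PPARG (0.993) and ETS1 (0.989). TLR1 followed the order of ICAM1, with 275 units in Mac_Dex, 685 in Mac_Vehicle, 62.8 in Mono_Dex and 89.2 in Mono_Vehicle. Among the members themselves, r ran from 0.428 between ICAM1 and ICAM3 to 0.954 between PECAM1 and CD58.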

How the data were processed

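RNA of 11 THP-1 samples in 4 groups was measured on the NanoString nCounter. The deposited values are a normalized linear signal per probe, and the series design text names nSolver for quality control; neither its version nor the normalization settings and background correction are stated in those texts. In each sample 100% of low endogenous values lay within 0.1 of a step on a regular grid, with steps from 1.21 to 1.52 in macrophages and from 0.659 to 0.965 in monocytes; a value divided by its step is called the net count. Because the background correction is unknown, no count test was run.

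Endogenous probes with a mean of 20 units or more in any group, 379 in all and among them 5 of the 9 members, were tested with limma 3.58.1 in R 4.3.3 (lmFit, eBayes with trend) on log2(signal + 1), all 4 groups in 1 fit, with Benjamini-Hochberg adjustment over all tested probes in each of 5 comparisons and calls at adjusted p under 0.05. A log2 change on this scale understates low genes. A fold is a ratio of group means, with a mean under 20 set to 20 ("at least"). The script was tested on simulated data. The result of 1 marker list is not reported here. The members and lists were chosen with earlier results of these data known. List genes were named by smallest adjusted p, at most 4 per list and comparison, and the 2 most alike probes per member by Pearson r. Alternatives were pseudocounts of 5 and 20, no filter, a floor of 50, other scalings (15 housekeeping probes), eBayes settings, only the groups compared, a replicate block and leaving out each sample; the filter was kept when samples were left out. Promoters are RefSeq on GRCh38.p14, read with Python 3.11.15 and pandas 2.3.3.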

Additional observations from a re-analysis of the deposited data

Results flagged for a closer look

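The response to Dex differed between macrophages and monocytes, by the interaction term of limma, for PECAM1 and for 7 genes named from the lists. Over the panel, 25.9% of tested genes were called for this difference. The list genes other than FKBP5 had been named by smallest adjusted p for Dex in these data, so their number says nothing about the lists. For PECAM1 the macrophage response was lower by -0.22 on the log2 scale (adjusted p = 0.0198). Among the other adhesion molecules the difference was -0.67 for CD9, -0.23 for CD81 and 0.40 for CD99. In the NF-kB route it was -0.75 for IL1B, -0.77 for NFKBIA and -0.58 for TNFRSF1B. For FKBP5 it was 1.96, but the retained Mac_Dex samples were kept partly for their FKBP5 level. The causes were not tested. Calls of the difference were lost for CD81 after median-centring (-0.15, adjusted p = 0.397), with quantile normalization (-0.097, adjusted p = 0.532), without a trend in eBayes (0.0532) and without Mac_Dex replicate 5 (0.0520). With the replicate block, only those for NFKBIA and FKBP5 among these 8 genes held; the limma adjusted p was 0.311 for PECAM1 and for CD81, 0.0804 for CD9, 0.114 for CD99, 0.171 for TNFRSF1B and 0.181 for IL1B. The call for IL1B also ended with no filter (0.110), with quantile normalization (0.0623), without a trend (0.0862) and in 8 of the 11 fits that left out 1 sample, and a Mono_Dex mean under the floor leaves its size unmeasured.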

How the results depend on the processing

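The log2 changes of ICAM1 and CD58 kept their sign in each comparison of 2 groups under all alternatives. With quantile normalization the Dex change in monocytes turned to -0.15 for PECAM1 and -0.11 for CD81, and in macrophages to 0.18 for ICAM3 and -0.20 for CD81. Median-centring turned the macrophage Dex change to 0.20 for ICAM3, 0.12 for PECAM1 and 0.082 for ITGB2. For macrophages against monocytes with vehicle, median-centring and quantile normalization gave -0.60 and -0.61 for ICAM3 and -0.20 and -0.75 for PECAM1. Housekeeping-centring left ICAM3 at 0.069 with vehicle, no longer called. With Dex, median-centring and quantile normalization gave -0.80 and -0.79 for ICAM3, which was at -0.24 with housekeeping-centring, and -0.34 and -0.83 for PECAM1. The difference of the responses for ICAM2 turned to 0.053 after median-centring. Leaving out single samples gave -0.57 to 0.078 for ICAM2 and Dex in monocytes, -0.055 to 0.00165 for ICAM3 and Dex in macrophages, -0.040 to 0.11 for ICAM3 in Mac_Dex minus Mono_Dex, and -0.34 to 0.30 for the ICAM2 difference of responses. Members called then numbered 1 to 4 for Dex in monocytes, 1 to 3 in macrophages and 0 to 2 for the difference; where Mac_Dex kept 1 sample, it was assumed to vary like the other groups. Without a trend in eBayes, 2 members were called in monocytes and 0 for the difference; the difference had 2 with pseudocounts of 5 or 20, and 0 after median-centring or quantile normalization. Same-numbered samples deviated together in monocytes (r 0.226 and 0.177) and opposite ways in macrophages (-0.277 and -0.415), and nothing in the labels pairs them. Because Mac_Dex has only 2 samples, they deviate from their mean as mirror images, so the 2 macrophage values are not independent. With the replicate block, 1 member stayed called in monocytes and 1 in macrophages (ICAM1 in each), and 0 for the difference, with 62 and 32 genes called over the panel in monocytes and for the difference instead of 148 and 98; CD58 lost its Dex call in macrophages (adjusted p = 0.129) and in monocytes (0.147), as CD82 (0.344), CD44, CD9 and CD244 did in monocytes; the difference turned to 0.13 for ICAM2 and -0.014 for CD58. In the block, Dex and vehicle share only replicates 3 and 6 in monocytes and 1 and 5 in macrophages, so it leaves little to estimate spread from. No paired analysis was possible for Mac_Dex against Mono_Dex because they share no replicate number. The cause of these changes was not tested. Signal near the floor limits ICAM1 and ICAM2 in monocytes.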
